A study of Mus musculus with 6 samples.

Results

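The tumour necrosis factor (TNF) superfamily was examined in HBC and LBC, cells that bind high and low amounts of FcsFNDC4, the extracellular part of the hepatokine FNDC4 fused to an antibody Fc fragment. A gene was taken as a member if its symbol starts with Tnfsf or Tnfrsf, or is Tnf, Lta, Ltb, Ltbr, Fas, Fasl, Cd40, Cd27, Cd70 or Ngfr. Of 19938 genes with a transcript cluster (a set of probes for one transcript) of their own on the array, 39 were members, 14 ligands and 25 receptors. Each was measured by 1 transcript cluster.

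Ligands of this superfamily are trimeric proteins, most of them anchored in the membrane and some released by proteases, and each binds one or several receptors. Receptors with a death domain can recruit caspases through adaptor proteins, many others bind TRAF adaptors that activate NF-kB, and decoy receptors bind ligand without passing a full signal on. In fat, TNF itself is best known as a macrophage product that lowers the insulin response of adipocytes and holds back the differentiation of preadipocytes.

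Both groups came from one line of immortalized stromal vascular fraction (SVF) cells, a preadipocyte model made from male 129SVE mice, whose inguinal white fat was used and whose age is not given. The line was stained with FcsFNDC4, and strongly and weakly stained cells were collected by flow cytometry, grown and sorted again until passage 20. HBC and LBC were each measured on 3 arrays, which the titles call technical replicates, so the p-values measure technical spread around 1 sorted population per group and the spread between independent sorts was not measured. For LBC replicates 2 and 3 the source name gives HBC, whereas title, description and phenotype give LBC, and the grouping followed the titles.

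Values are intensities on the deposited linear scale, and differences are HBC minus LBC in log2(intensity + 16), tested with limma and Benjamini-Hochberg adjustment over all 19938 genes. A gene was called where its adjusted p was under 0.05 and its fold on that scale exceeded 1.5. Array medians ranged from 122 to 132 in HBC and from 131 to 135 in LBC, and arrays correlated at 0.9961 to 0.9986 within a group and 0.9801 to 0.9857 between groups. Olfactory receptor genes, which these cells are not known to use, served as a reference for dim signal, with 90th percentiles of 83.9 in HBC and 86.1 in LBC. Of 15 preadipocyte and fibroblast markers measured, 14 were above this reference, against 4 of 7 markers of mature adipocytes, 5 of 11 of macrophages and dendritic cells, 4 of 9 of lymphocytes and 0 of 6 of endothelium.

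The superfamily as a whole differed little between HBC and LBC. The ligand TRAIL (Tnfsf10) was called higher in HBC, the death domain receptor DR6 (Tnfrsf21) was called lower, and the other 37 members were not called. The 1 member called higher stands beside 2.54% of all genes, and the 1 called lower beside 1.13%. The median log2 difference of the 39 members was -0.05, against -0.07 over all genes, and 14 members had a positive and 25 a negative difference, where 69.3% of all genes had a negative one. Without the fold threshold, 4 members were higher and 3 lower, beside 6.93% and 11.4% of all genes. All 3 HBC arrays lay above all 3 LBC arrays for 7 members and below them for 6, beside 10.1% and 25.1% of all genes. The counts without the fold threshold moved with the scaling, to 9 higher and 4 lower after cyclic loess and 5 higher and 1 lower after median centring, where all genes went from 1381 higher and 2274 lower to 3090 and 2460, and to 1545 and 932.

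**Figure D1:**
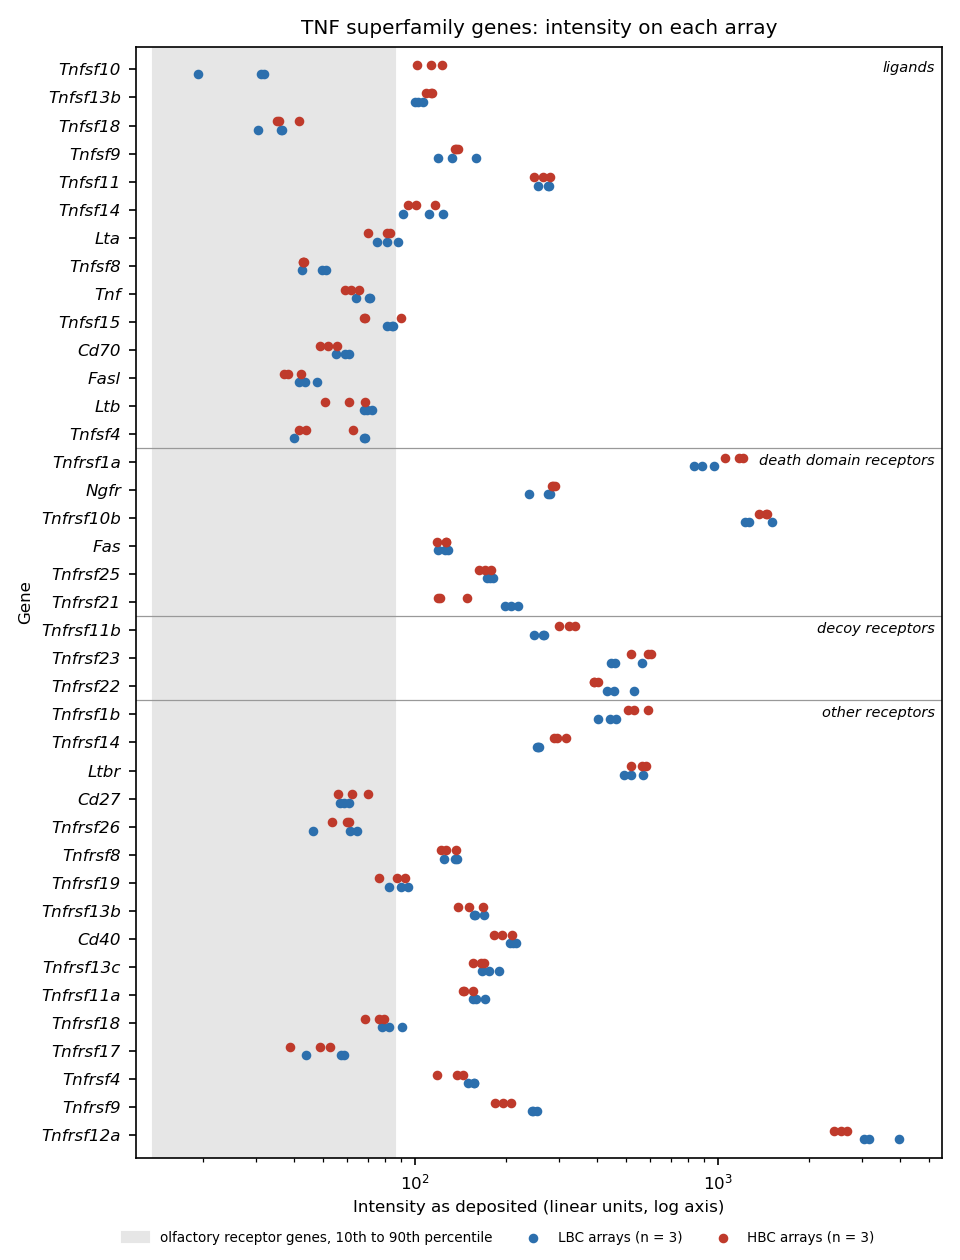
Intensity of the 39 TNF superfamily genes (rows) on a log axis, with 1 dot for each HBC array (red) and each LBC array (blue). The grey band runs from the 10th to the 90th percentile of the olfactory receptor genes. Most ligands lie in the band in both groups, whereas Tnfsf10 lies in it in LBC and above it in HBC.

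The share of genes above the dim reference differed between ligands and receptors. Of the 39 members, 26 were above the dim reference in at least 1 group, beside 13937 of all 19938 genes. The other 13 were within it in both groups, among them 9 of the 14 ligands and 4 of the 25 receptors. The 9 dim ligands were Tnf, Lta, Ltb, Fasl, Cd70, Tnfsf4, Tnfsf8, Tnfsf15 and Tnfsf18, most of them products of activated immune cells. A dim signal gives no evidence of expression, and changes in it are made smaller by the added 16. A signal above the reference is not proof of expression either. The lymphocyte markers Cd3e (143 in HBC, 140 in LBC) and Nkg7 (162 and 171) were above it in this preadipocyte line. The Tnfsf10 mean of 113 in HBC was below both.

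TRAIL, which triggers cell death through its death domain receptor and is known as a gene induced by interferon, separated HBC from LBC. Tnfsf10 read 113, 123 and 102 on the 3 HBC arrays and 31.9, 31.1 and 19.3 on the 3 LBC arrays. The groups did not overlap, and the HBC arrays lay within a narrow range. The means were 113 ± 10.5 in HBC against 27.4 ± 7.05 in LBC (SD, n = 3 each), a ratio of 4.11. The log2 difference was 1.58 (SE 0.10, 95% confidence interval 1.37 to 1.78, limma adjusted p = 1.8e-13), the 126th highest of 19938. In LBC the gene was below the olfactory receptor median of 37.0, and in HBC above the 90th percentile. The size of the difference is therefore uncertain, and the HBC mean was 1.31-fold the 90th percentile of dim signal in LBC. The call was made in all 19 alternatives in which the gene was tested, with log2 differences from 1.07 to 2.03, but the filter in the study's methods, a mean above 100 in both groups, leaves Tnfsf10 out.

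The sequence just upstream of Tnfsf10 is shown because TRAIL was the ligand that differed, and interferon regulatory factors bind to repeats of GAAA. The RefSeq window of 250 bases before to 50 bases after the start site lies at chr3:27316827-27317126 on the plus strand of GRCm38.p6. Capitals mark the letters AANNGAAA, searched on both strands and chosen after this sequence had been seen. These letters hold a single GAAA, so a match alone is not such a repeat.
Tnfsf10: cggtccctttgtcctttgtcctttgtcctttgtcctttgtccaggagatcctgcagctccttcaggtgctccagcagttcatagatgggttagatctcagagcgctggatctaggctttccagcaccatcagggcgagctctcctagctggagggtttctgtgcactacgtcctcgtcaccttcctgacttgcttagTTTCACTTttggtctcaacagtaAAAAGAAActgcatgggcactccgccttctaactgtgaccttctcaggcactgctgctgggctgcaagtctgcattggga

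The window holds 2 matches, from -53 to -46 on the minus strand and from -30 to -23 on the plus strand, counted from the start site. Such a match is common, being present in 23.9% of all 32851 mouse windows. Windows were at hand for 31 of the 39 members, 35 windows in all, of which 13 (37.1%) held a match, in 12 genes. The members with upstream matches closest to the start site are shown to set beside Tnfsf10, with 11 bases on either side of the match where the window allows, and with Tnfrsf21, the member called lower. Their windows are chr4:145246821-145247120 on the minus strand for Tnfrsf1b, chr8:10006383-10006682 on the plus strand for Tnfsf13b, chr4:154928028-154928327 on the minus strand for Tnfrsf14 and chr17:43016305-43016604 on the plus strand for Tnfrsf21, all of GRCm38.p6.
Tnfrsf1b, from -10 to -3: tggcctgagggTTTCGCTTtcagtcaccag
Tnfsf13b, from -14 to -7: acaaaaactgaAAGTGAAAtgcggaaggca
Tnfrsf14, from -58 to -51: ttttctttcatTTTCACTTttccttgccaa
Tnfrsf21, from -250 to -243: AAAAGAAAatagtctctgt

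Matches in Tnfrsf14 and Tnfsf13b overlapped a neighbouring match of the same motif, so that GAAA was repeated there. In Tnfsf10 the matches lay apart on opposite strands. Of the 4 genes set beside Tnfsf10, Tnfrsf1b, Tnfsf13b and Tnfrsf14 were not called, with log2 differences of 0.31, 0.10 and 0.22. Tnfrsf21 was lower in HBC. Whether these matches relate to the differences was not tested. The gamma-activated site TTCNNNGAA, to which STAT factors bind and which reads the same on both strands, was in 9 of the 35 member windows (25.7%) and in 8.30% of all windows. It was found in Fas, Lta, Ltb, Tnfrsf1a, Tnfrsf1b, Tnfrsf9, Tnfrsf18, Tnfrsf19 and Tnfrsf25, but not in the window of Tnfsf10. The kappaB consensus was in 4 member windows (11.4%), those of Ltb, Tnfrsf8, Tnfrsf9 and Tnfrsf25, and in 8.46% of all windows. Neither count was tested, and a match is no measure of binding.

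The receptors that bind TRAIL were bright in both groups and were not called. Tnfrsf10b, the mouse death domain receptor for TRAIL, read 1457, 1441 and 1368 in HBC and 1227, 1267 and 1511 in LBC. These arrays overlapped, with the highest value on LBC replicate 3 (log2 difference of 0.10, 95% confidence interval -0.09 to 0.28, limma adjusted p = 0.50). The interval, which measures technical spread only, excludes a fold of 1.5 in either direction between these sorted populations. The log2 difference was 0.19 without LBC replicate 3, 0.04 without LBC replicate 1 and 0.06 without LBC replicate 2, and adjusted p ranged over the alternatives from 0.035, after cyclic loess, to 0.86.

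Tnfrsf23 and Tnfrsf22 are decoy receptors for TRAIL that lie next to each other on chromosome 7. Tnfrsf23 read 588, 603 and 518 in HBC and 459, 445 and 562 in LBC, again with overlap through LBC replicate 3 (log2 difference of 0.22, limma adjusted p = 0.11). Tnfrsf22 read 404, 392 and 391 in HBC and 429.9, 454 and 529 in LBC, with every HBC array below every LBC array (log2 difference of -0.24, limma adjusted p = 0.063). The 2 decoys thus leaned in opposite directions, and neither passed the test here. Both passed the adjusted p, but not the fold, after quantile scaling (0.014 each) and cyclic loess (0.0090 for Tnfrsf23 and 0.041 for Tnfrsf22), with ranges over the alternatives of 0.0073 to 0.43 and 0.014 to 0.34. Without LBC replicate 3 the log2 differences were 0.32 for Tnfrsf23 (limma adjusted p = 0.0073) and -0.15 for Tnfrsf22 (limma adjusted p = 0.095).

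Osteoprotegerin (Tnfrsf11b) is a secreted decoy that binds RANKL and, more weakly, TRAIL. It read 323, 337 and 299.8 in HBC and 248, 267 and 264 in LBC, without overlap. Its log2 difference of 0.29 had an adjusted p of 0.017 by limma and a fold under 1.5, so it was not called. Over the alternatives its adjusted p ranged from 0.0013 to 0.11, and it was 0.074 by the methods' t-test. RANKL (Tnfsf11), the ligand that drives osteoclast formation, had means of 264 ± 15.8 in HBC against 269 ± 11.8 in LBC (SD, n = 3 each). Its signalling receptor RANK (Tnfrsf11a) had 148 ± 6.27 and 163 ± 7.80, respectively, and neither gene passed the test.

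**Figure D2:**
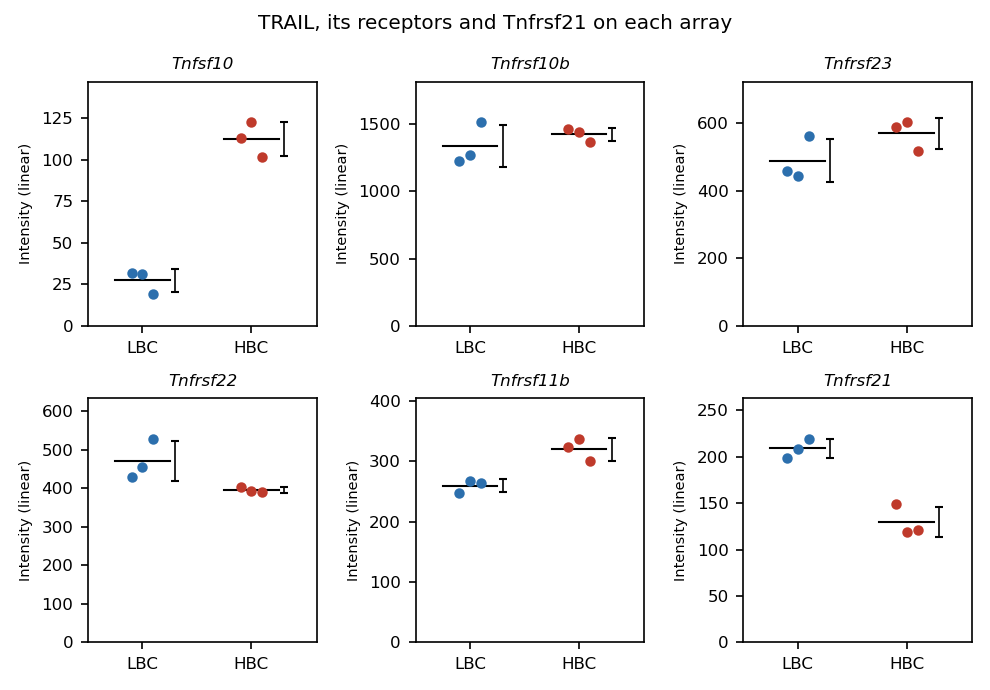
Intensity on a linear axis from 0 of Tnfsf10 (TRAIL), its receptors Tnfrsf10b, Tnfrsf23, Tnfrsf22 and Tnfrsf11b, and Tnfrsf21 (DR6), with 1 dot for each array (n = 3 per group), a line at the mean and a bar of ± 1 SD beside it. Tnfsf10 separates at 113 against 27.4 and Tnfrsf21 at 129.7 against 209, whereas Tnfrsf10b overlaps between the groups.

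DR6 (Tnfrsf21), a death domain receptor known from neurons and T cells for which no ligand of the superfamily is established, was the member lower in HBC. It read 149, 119 and 121 in HBC and 199, 208 and 219 in LBC. All arrays of both groups were above the dim reference, and the groups did not overlap. The means were 129.7 ± 16.5 in HBC against 209 ± 10.1 in LBC (SD, n = 3 each), so that LBC was 1.61 times HBC. The log2 difference was -0.63 (SE 0.09, 95% confidence interval -0.82 to -0.45, limma adjusted p = 3.5e-06), the 192nd lowest of 19938. The fold lay close to the threshold and fell under it in 5 of the 20 alternatives that kept this threshold, among them each of the 3 other scalings and the fit without HBC replicate 2 (log2 difference of -0.58). Adjusted p was at most 0.048 in all 20, and every one gave a lower level in HBC.

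The other death domain receptors were not called. TNF receptor 1 (Tnfrsf1a), through which soluble TNF mainly signals, read 1177, 1214 and 1059 in HBC and 838, 888 and 975 in LBC. The groups did not overlap, and the log2 difference of 0.35 had an adjusted p of 0.0048 by limma but a fold under 1.5. Fas, the receptor of Fas ligand, had means of 124 ± 4.66 in HBC against 125 ± 5.11 in LBC (SD, n = 3 each), with a 95% confidence interval of -0.18 to 0.17 for its log2 difference. The low-affinity neurotrophin receptor Ngfr had 286 ± 3.04 and 264 ± 22.3, and Tnfrsf25 (DR3) had 171 ± 7.84 and 177 ± 4.19, respectively. Thus, of 6 death domain receptors, 1 was called lower, beside 1.13% of all genes. By adjusted p alone 1 more passed, with a higher level in HBC, beside 6.93% of all genes.

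Both receptors of TNF leaned towards HBC, whereas TNF itself was dim. TNF receptor 2 (Tnfrsf1b), which carries no death domain and responds best to membrane TNF, read 530.2, 588 and 506 in HBC and 402, 440.4 and 461 in LBC. The groups did not overlap (log2 difference of 0.31, limma adjusted p = 0.013, not called). Tnf read 61.9, 59.0 and 65.8 in HBC and 71.1, 70.7 and 64.1 in LBC, all within the dim reference (log2 difference of -0.11, 95% confidence interval -0.29 to 0.06). By the methods' t-test the receptors' adjusted p rose to 0.11 for Tnfrsf1a and 0.13 for Tnfrsf1b, and it ranged over the alternatives from 0.00035 to 0.11 and from 0.001 to 0.13, respectively.

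Of 16 receptors that are neither decoys nor hold a death domain, 0 were called in either direction by limma, and Tnfrsf1b, Tnfrsf9 and Tnfrsf12a passed the adjusted p alone. At an unadjusted p under 0.05 they were joined by Tnfrsf14 and Tnfrsf4, which gave 2 higher and 3 lower, beside 9.48% and 20.3% of all genes, and the methods' t-test also called 0. Fn14 (Tnfrsf12a), the receptor of TWEAK and an early gene of tissue injury, read 2662, 2545 and 2422 in HBC and 3043, 3155 and 3972 in LBC. The groups did not overlap, with LBC replicate 3 above the rest. Its log2 difference of -0.40 (limma adjusted p = 0.0024) was the nearest to the fold threshold among members not called, as that of Tnfrsf21 was among those called. The difference of Tnfrsf12a was -0.28 without LBC replicate 3. Its adjusted p ranged over the alternatives from 0.00012 to 0.16, the highest by the methods' t-test.

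Tnfrsf9 (4-1BB), a costimulatory receptor of T cells, read 208, 196 and 184 in HBC and 244, 252 and 245 in LBC, without overlap (log2 difference of -0.32, limma adjusted p = 0.0074). Over the alternatives its adjusted p ranged from 0.0013 to 0.083, the highest by limma after median centring. Tnfrsf14 (HVEM), a receptor of LIGHT and lymphotoxin, read 295, 315 and 288 in HBC and 256, 254 and 256 in LBC. Its arrays did not overlap either, but it did not pass the test (log2 difference of 0.22, limma adjusted p = 0.071). The lymphotoxin receptor Ltbr had means of 554 ± 32.4 in HBC against 524 ± 38.1 in LBC (SD, n = 3 each), and Cd40, a receptor best known from B cells, had 195 ± 13.2 and 211 ± 4.26, respectively. Differences of the other receptors in this group ran from -0.20 for Tnfrsf4 (OX40) to 0.08 for Cd27 on the log2 scale.

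The ligands apart from TRAIL were not called. BAFF (Tnfsf13b), a survival factor of B cells, had means of 112 ± 2.73 in HBC against 103 ± 2.92 in LBC (SD, n = 3 each), with every HBC array above every LBC array but a log2 difference of only 0.10. Tnfsf9, the ligand of 4-1BB, had 137 ± 1.26 and 137 ± 20.3, and Tnfsf14 (LIGHT) had 104 ± 11.2 and 109 ± 16.2. Fasl was dim at 39.1 ± 2.58 and 44.3 ± 3.16. The 14 ligands had a median log2 difference of -0.08 and the 25 receptors one of -0.05.

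**Figure D3:**
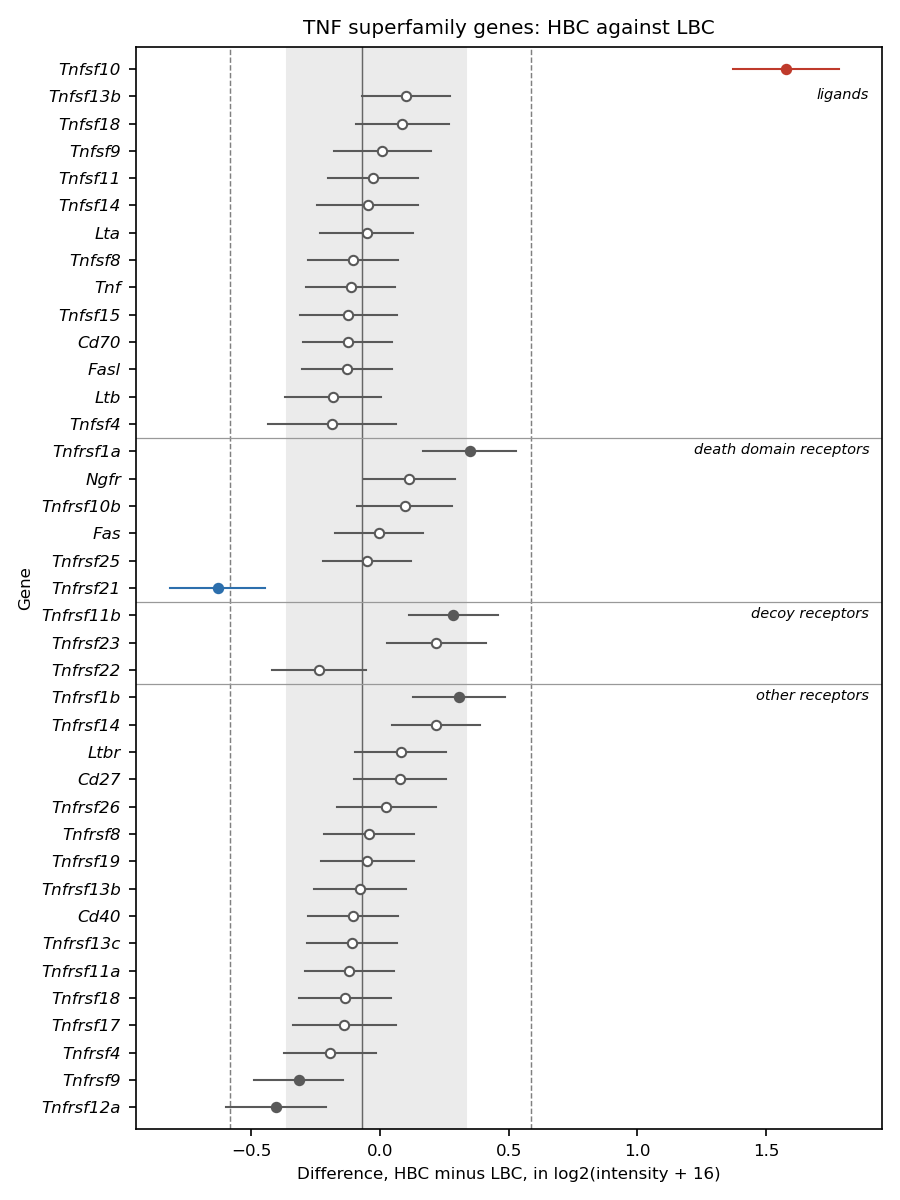
Difference of each of the 39 genes, HBC minus LBC, in log2(intensity + 16), with 95% confidence intervals from limma. Filled points have an adjusted p under 0.05 and coloured ones were called. Dashed lines mark a fold of 1.5, the grey line the median of all 19938 genes and the grey band their 5th to 95th percentile. Tnfsf10 stands far to the right at 1.58 and Tnfrsf21 just beyond the left line at -0.63.

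The members share position as well as name. In the order of protein-coding genes of RefSeq GRCm38.p6, 18 of the 39 form 7 runs of direct neighbours, 4 of which hold 3 members: Tnfsf4, Tnfsf18 and Fasl on chromosome 1, Ltb, Tnf and Lta on chromosome 17, Tnfsf9, Cd70 and Tnfsf14 further along chromosome 17, and Tnfrsf26, Tnfrsf22 and Tnfrsf23 on chromosome 7. Neither called member lies in such a run. Within the run on chromosome 7, Tnfrsf26 was dim with a log2 difference of 0.02, beside -0.24 for Tnfrsf22 and 0.22 for Tnfrsf23.

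Of 87 genes measured in 5 lists of the pathway, 2 were higher and 2 lower in HBC, beside 2.54% and 1.13% of all genes. By adjusted p alone 14 were higher and 13 lower, beside 6.93% and 11.4% of all genes. All 4 called genes were among the 29 response genes of TNF and NF-kB, whose median log2 difference was -0.03, against -0.07 over all genes. By adjusted p alone this list had 5 higher and 4 lower, beside the same shares of all genes. The 2 called higher were chemokines and the 2 called lower were early response genes. The list's other chemokines were not called, with log2 differences from -0.16 for Cxcl1 to 0.44 for Ccl2. Of the genes that passed the adjusted p alone, Zc3h12a was higher (0.30) and Gadd45b lower (-0.26).

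Cxcl10, a chemokine for T cells that interferons also induce, read 2105, 2410 and 1372 in HBC and 715, 715 and 565 in LBC. The groups did not overlap (log2 difference of 1.51, limma adjusted p = 1.4e-10). Ccl7, a chemokine for monocytes, read 3004, 3316 and 2800 in HBC and 1534, 1582 and 1901 in LBC, also without overlap (log2 difference of 0.86, limma adjusted p = 2.3e-08).

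Ier3, an early gene that modulates cell survival, read 538, 531 and 492 in HBC and 801, 783 and 1062 in LBC (log2 difference of -0.73, limma adjusted p = 1.2e-06). Ptgs2, the inducible cyclooxygenase of prostaglandin synthesis, read 1818, 1823 and 1547 in HBC and 2586, 2630 and 3445 in LBC (log2 difference of -0.73, limma adjusted p = 2e-06). Neither gene's groups overlapped. By the methods' t-test, Cxcl10, Ier3 and Ptgs2 lost the call, with adjusted p of 0.058, 0.073 and 0.084, and Ccl7 kept it.

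Adaptors and cell death genes had 21 members measured and 0 called by limma, with 5 higher and 2 lower by adjusted p alone and the same counts at an unadjusted p under 0.05 (all genes: 6.93% and 11.4% by adjusted p, 9.48% and 20.3% unadjusted), and with a median log2 difference of 0.03. Casp8, the initiator caspase of death receptors, had means of 2129 ± 191 in HBC against 2051 ± 98.2 in LBC (SD, n = 3 each). Tank, a binder of TRAF proteins, had 1740.1 ± 67.5 and 1553 ± 133, and neither passed the test. Ripk3 and Mlkl, the kinase and the membrane-breaking effector of necroptosis, passed the adjusted p but not the fold, with log2 differences of 0.51 and 0.56.

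NF-kB and its regulators had 23 members measured and 0 called by limma, with 1 higher and 6 lower by adjusted p alone, 1 and 8 at an unadjusted p under 0.05 (the same shares of all genes apply), and a median log2 difference of -0.10. Those 6 were Bcl3 (-0.57), Nfkbie (-0.55), Nfkbia (-0.41), Nfkb2 (-0.39), Cyld (-0.35) and Relb (-0.34), of which Nfkbia and Nfkbie encode inhibitors and Nfkb2 and Relb subunits of NF-kB. The gene higher was Rnf31 (0.45), of the ubiquitin ligase that builds linear chains. Tab2 and Map3k7, of the kinase complex that activates the inhibitor kinases, had log2 differences of 0.07 and -0.07 and did not pass the test.

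The proteases that release or process TNF ligands, with their inhibitor and cofactors, made up 8 genes and 0 calls by limma. By adjusted p alone 3 were higher and 0 lower, beside 6.93% and 11.4% of all genes. The counts were the same at an unadjusted p under 0.05, beside 9.48% and 20.3% of all genes. The methods' t-test likewise called 0 genes of these last 3 lists. Sppl2a, which cleaves the membrane stub of TNF, had a log2 difference of 0.36 and Timp3, the inhibitor of the TNF sheddase, one of 0.44. The other gene to pass the adjusted p was Rhbdf1, a cofactor, at 0.29 (limma adjusted p = 0.023). The sheddase Adam17 had -0.03, and its relative Adam10 had 0.07.

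**Figure D4:**
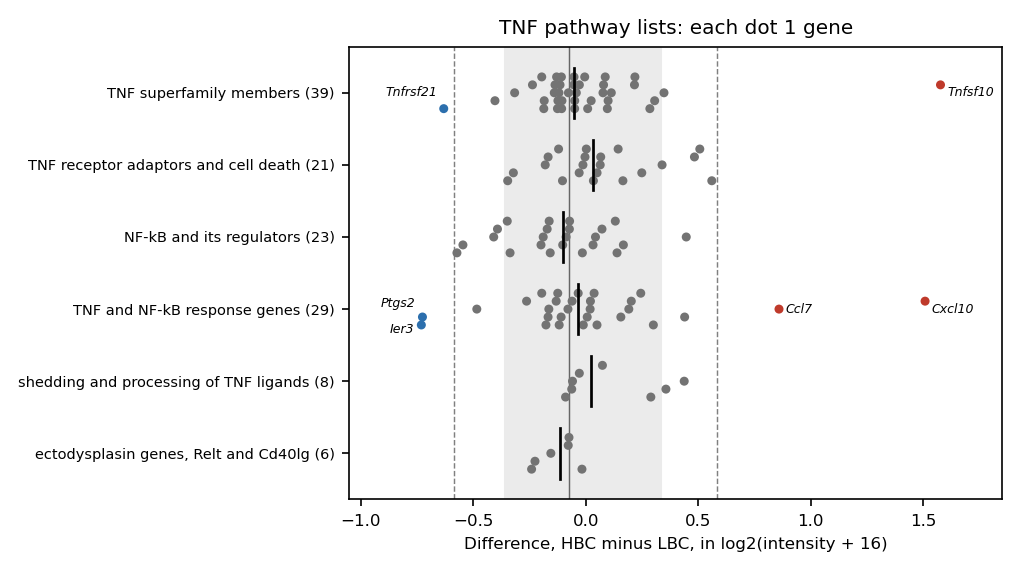
Difference of each gene (dot), HBC minus LBC, in log2(intensity + 16), for the 39 members and the 5 pathway lists, with the number of genes in brackets. Short black lines are list medians, dashed lines a fold of 1.5, the grey line the median of all genes and the grey band their 5th to 95th percentile. Coloured and named dots were called, 1 higher and 1 lower among members and 2 of each among response genes.

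Summed levels of macrophage and lymphocyte markers were lower in HBC. Of the 13 dim members, 10 had negative differences that did not pass the test, and 69.3% of all genes had a negative difference. Summed intensity over 11 macrophage and dendritic cell markers was 913 to 938 in HBC and 1012 to 1088 in LBC, and over 9 lymphocyte markers 603 to 655 and 669 to 723, respectively. The widest gaps in the macrophage sum were those of Cd14 (107 in HBC against 155 in LBC) and Itgam (159 against 189). Of its 11 markers, 6 were within the dim reference in both groups. By limma, 0 markers of either list were called, 3 and 4 were lower at an unadjusted p under 0.05, beside 20.3% of all genes, and 1 macrophage marker, Cd14, passed the adjusted p alone with a lower level in HBC (log2 difference of -0.48). The defining markers Adgre1, Lyz2 and Ptprc were within the dim reference, whereas Cd68, Csf1r, Cd14, Itgam and Fcgr1, and the lymphocyte markers Cd3e, Cd4, Cd8a and Nkg7, were above it in at least 1 group. Mature adipocyte markers summed to 2862 to 3030 in HBC and 2189 to 2556 in LBC, a sum made up mostly of Fabp4 (2363 against 1774), whereas Adipoq was dim in both and the median log2 difference of the 7 markers was -0.01. The part of these cell types in the members' differences was not tested.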

How the data were processed

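RNA of the sorted cells was hybridised to Affymetrix mouse gene arrays, 3 per group. The authors deposited linear intensities, made with Affymetrix Expression Console per the labels. The sources used here give neither its version nor the summary and normalization. Rows carry identifiers of an earlier mouse gene array than the 2.0 type named in the methods.

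Of 35556 transcript clusters, 21789 had 1 gene symbol, 1621 several and 12146 none; only the first were used, with the brightest cluster for each of 999 genes that had several. The groups were fitted in R 4.3.3 by limma 3.58.1 (lmFit, then eBayes with 24.9 prior and 4 residual degrees of freedom) on log2(intensity + 16), without a replicate block. The pipeline was tested on simulated data. Depth does not apply to arrays, and their number limits the precision. No scanner files were used, so batches could not be examined.

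Members and gene lists were chosen with earlier results of these data known, and lists are described by counts and medians without a test. The text names every called member, the 8 brightest members not called, receptors of called ligands, called list genes or the 2 brightest of a list without calls, and members nearest the fold threshold. Other genes were named after their values were seen. Promoter windows are from RefSeq, which matched all 39 members, 31 with a window. Fam105b and Emr1 are older symbols of Otulin and Adgre1 and were counted once. Alternatives were other scalings, offsets, filters, tests, variance priors, cluster choices, thresholds, a replicate block and leaving out each array; no fold threshold together with other scalings was added after the data were seen.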

Additional observations from a re-analysis of the deposited data

How the results depend on the processing

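Members called higher numbered 1 and lower 1. The higher count was 0 with a mean intensity above 100 in both groups. Without the fold threshold it was 4, and 7, 9 and 5 with quantile, cyclic loess and median scaling besides. The lower count was 0 after quantile, cyclic loess or median scaling, with an added 50 and with a fold above 2. Without the fold threshold it was 3, and 4 and 4 with quantile and cyclic loess scaling. Leaving out single arrays gave 0 to 1 lower, the 0 without HBC replicate 2, and always 1 higher. Pathway genes called numbered 2 higher and 2 lower. By the methods' t-test they were 1 and 0, with a fold above 2 also 1 and 0, and with an added 1 the lower count was 4. Without the fold threshold they were 14 and 13, with quantile scaling 19 and 18, with cyclic loess 22 and 12, and with median centring 14 and 7. Single arrays left out gave 2 to 3 higher and 2 to 4 lower, the 4 without LBC replicate 1. With the replicate block, counts were 1 and 1 for members and 2 and 2 for pathway genes. Arrays of the same number did not deviate together (correlations of -0.10, -0.24 and -0.50), so the numbers do not pair them. Between HBC and LBC arrays of different number the correlations ran from -0.47 to 0.49, and the source of this was not tested. None of the 15 genes named by rule changed direction in these settings, and the call was lost in 8 of their values, 5 of them of Tnfrsf21. Among the other members, 10 not called, Fas, Tnfsf9, Tnfsf11, Tnfsf14, Tnfrsf25 and Tnfrsf26 among them, changed sign in at least 1 setting, within log2 differences of -0.15 to 0.11. Tnfrsf21 had log2 differences of -0.57, -0.54 and -0.56 after quantile, cyclic loess and median scaling, and -0.53 with an added 50. Scaling moved the median of all genes from -0.07 to -0.02, 0.00 and 0.00, under 0.1 in each case. The cause of these changes was not tested. Signals within the dim reference, those of 13 members, limit what could be seen of the ligands.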

Other observations

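Next to the members called, the genome gave 1 other large difference. Adgrf5 (Gpr116), an adhesion G protein-coupled receptor, is the second protein-coding gene from Tnfrsf21 on chromosome 17, with Adgrf1 between them. Adgrf5 was higher in HBC with a log2 difference of 2.72 (SE 0.09, limma adjusted p = 1.6e-20), whereas Tnfrsf21 was lower at -0.63. Adgrf1 had -0.12, and Cd2ap, on the other side of Tnfrsf21, had 0.10, and neither passed the test. None of the 6 nearest genes of Tnfsf10 on chromosome 3 was called. Ect2, which guides cell division, passed the adjusted p alone with a log2 difference of -0.48 (limma adjusted p = 0.00013).

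The ligands TWEAK (Tnfsf12), which binds Fn14, and APRIL (Tnfsf13) had a cluster in common, which was therefore no member. It gave 367 ± 24.9 in HBC against 321 ± 18.1 in LBC (SD, n = 3 each), a log2 difference of 0.18 (SE 0.083, limma adjusted p = 0.22 over all transcript clusters). Another 6 genes outside the naming rule were the ligands Eda and Cd40lg, the receptors Edar, Eda2r and Relt, and Edaradd, an adaptor of the receptor Edar. Of these, 0 were called by limma and 2 were lower at an unadjusted p under 0.05, beside 20.3% of all genes. All 6 differences were negative, beside 69.3% of all genes. The 2 lower at an unadjusted p under 0.05 were Eda and Relt, the latter with a log2 difference of -0.23. Eda passed the adjusted p alone, at a value that rounds to 0.05 by limma. It had means of 96.8 ± 2.75 in HBC against 118 ± 9.78 in LBC (SD, n = 3 each), a log2 difference of -0.24. Eda2r had 135 ± 7.14 and 152 ± 5.56, respectively, with an unadjusted p of 0.077 by limma.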
